A study of Arabidopsis thaliana with 24 samples.

Results

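Seedlings of Arabidopsis thaliana without phytochrome A (phyA) were compared with seedlings without phytochrome B (phyB) after both had received 1 h of red light. The comparison covered the 6 arrays that the labels give as phyA mutant or phyB mutant under red light, out of 24 arrays in the series, and all probe sets except the Affymetrix controls. The red phyA group was a phyA mutant grown in darkness until it was 4 days old and then given 1 h of 680 nm red light at a fluence rate of 8 µmol per m2 per s. The red phyB group was a phyB mutant given the same growth and light. Beside them stood the dark phyA and dark phyB groups, 4-day-old mutants with no light, and 2 more red-lit groups of the same age, the phyAphyB mutant, which lacks both photoreceptors, and wild type. Each group had 3 biological replicates, each an array of RNA from whole seedlings with root, hypocotyl and cotyledon together. The labels name no allele and no background strain, so the mutation and any other inherited difference between the lines cannot be told apart. Since no probe set was named for PHYA or PHYB, the genotype labels have no check from the mutated genes.

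Phytochromes are photoreceptors of red and far-red light. Red light turns them into an active form that enters the nucleus and acts on transcription factors, so that a seedling grown in darkness stops elongating its hypocotyl, opens its cotyledons and builds chloroplasts. Phytochrome A gathers in darkness, is degraded in light and carries the first responses to light of any colour it absorbs, while phytochrome B is the more stable photoreceptor that dominates in lasting red light. A phyA mutant therefore keeps phytochrome B as its main red photoreceptor, and a phyB mutant keeps phytochrome A.

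The deposited value of a probe set, a group of short oligonucleotides for a transcript, is a signal of the MAS5 algorithm on a linear scale. A mean for each of 8 groups was fitted to the log2 signals of all 24 arrays with limma, and a difference was called where its adjusted p was under 0.05. Differences are given as phyA minus phyB in log2 units with their SE, and n was 3 arrays in every group unless stated. Median signals of the 6 arrays lay between 173.05 and 189.15, and each array correlated with the rest of its group at 0.9588 to 0.9694. Dark phyA replicates 2 and 3 stood apart by their 25S rRNA control, at 10507.9 and 13573.9, which read 98.7 on dark phyA replicate 1 and 367.6, 384.4 and 215.0 on the red phyA arrays, so counts of dark calls are also given without them. That leaves 1 dark phyA array, replicate 1, which has the lowest correlation with its group of the 24 (0.9462), so the spread then comes from the other groups and this array is assumed to vary like them. Of 22746 probe sets, 15085 passed a filter on dim signals, a signal above the 40th percentile of its array on at least 3 of 24 arrays.

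The phyA and phyB mutants differed at 1598 probe sets under red light, which is 10.6% of those tested. phyA was higher at 851 (5.64%) and lower at 747 (4.95%). The difference reached 2-fold at 456 probe sets (3.02%), with phyA higher at 248 (1.64%) and lower at 208 (1.38%), and 4-fold at 78, with phyA higher at 50 and lower at 28. The called probe sets stood for 833 of 8103 genes with a probe set of their own, and 738 called probe sets had no gene name. The 3 phyA arrays and the 3 phyB arrays did not overlap at 1550 of the called probe sets, and at 4016 (26.6%) of all tested. In RNA from whole seedlings, fewer cells of a type and less RNA per cell cannot be told apart.

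A large share of these differences was also measured in seedlings that had seen no light. The dark groups share no array with the red groups, and there phyA and phyB differed at 1862 probe sets (12.3%). At 855 probe sets the difference was called in both lights in the same direction, which is 53.5% of the red calls and 45.9% of the dark calls. Without dark phyA replicates 2 and 3 the dark comparison had 1096 calls, and the number called in both lights in the same direction was 535, or 33.5% of the red calls, with 1 dark phyA array left. Among the larger differences the count was 328 of the 456 probe sets that reached 2-fold (71.9%) and 61 of the 78 that reached 4-fold, and without those replicates it was 253 and 54. The sign was the same in darkness at 90.9% of the red calls, beside 63.1% of all probe sets tested (87.2% and 63.3% without those replicates). Across probe sets, which are not independent replicates and share their arrays, the red and dark differences correlated at 0.659 over all 15085 and at 0.892 over the 1598 red calls, and at 0.57 and 0.853 without those replicates. The red calls were picked by their red difference, and such a selection alone can raise the correlation and the share with the same sign.

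**Figure D1:**
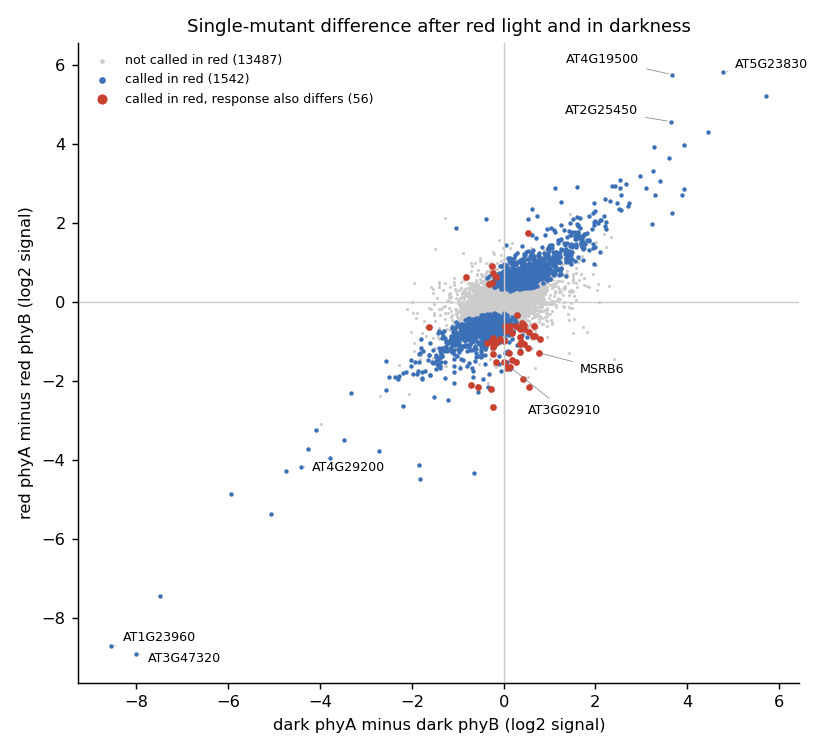
Log2 difference of phyA minus phyB after 1 h of red light (vertical axis) against the same difference in darkness (horizontal axis) for each of 15085 probe sets. The 1598 red calls lie mostly along the diagonal, with values at the far ends set by mutants whose signals were under the dim filter, and the 56 red calls whose difference changed with light (red points) lie mainly below the horizontal line and near 0 on the dark axis.

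Of the 14 largest differences with a higher level in phyA, a role is given here for AT2G25450, PIP, AAH and LUL1 alone. AT2G25450, a dioxygenase gene of glucosinolate side-chain modification, had signals of 11050.8, 10662.1 and 15739.0 in red phyA seedlings, against 580.4, 502.6 and 484.8 in red phyB seedlings. All 3 phyA arrays were far above all 3 phyB arrays, with a difference of 4.56 ± 0.32 (adjusted p = 1.1e-09). In darkness the difference was 3.65 ± 0.32 (adjusted p = 2.2e-08), and the dark phyB arrays read 426.1, 2133.3 and 530.4. Replicate 2 of dark phyB was the highest of those 3. Red-lit phyAphyB seedlings averaged 10052.9 ± 498.07 and wild type 12049.7 ± 1363.4 (SD, n = 3 each), so the low level was measured in the phyB mutant and in neither of the other red-lit genotypes.

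PIP, the gene of proline iminopeptidase, an enzyme that removes proline from peptide ends, read 2776.2, 2688.4 and 2282.0 in red phyA seedlings, against 411.7, 365.7 and 418.6 in red phyB seedlings. The arrays did not overlap, and the difference was 2.69 ± 0.18 under red light (adjusted p = 7.2e-10) and 2.55 ± 0.18 in darkness (adjusted p = 5.9e-10). AAH, the gene of allantoate amidohydrolase, which releases ammonium from purine breakdown products, read 3306.0, 3127.6 and 1977.6 in red phyA seedlings, against 670.2, 604.9 and 555.8 in red phyB seedlings. Replicate 3 of phyA was the lowest of its group and still above every phyB array, and the difference was 2.17 ± 0.17 (adjusted p = 2.8e-09). For PIP and AAH, unlike AT2G25450, the phyAphyB seedlings had low signals, of 338.6 ± 68.02 and 654.07 ± 61.39, while wild type had 2705.27 ± 122.54 and 3315.77 ± 279.1 (SD, n = 3 each).

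LUL1, a ubiquitin ligase gene, read 337.5, 569.5 and 318.5 in red phyA seedlings, against 59.3, 61.5 and 61.3 in red phyB seedlings. The phyB signals were under the 40th percentile of their arrays, the level of the dim filter, so the difference is given as at least 3.72-fold (adjusted p = 4.2e-06). The same bound was at least 4.66-fold in darkness. Loci that the gene tables used here name by code only, and for which no role is given, made up the rest of the 14 largest differences on this side. AT5G23830 read 595.7, 479.1 and 601.3 in red phyA seedlings, against 5.2, 6.1 and 29.9 in red phyB seedlings, at least 5.24-fold (adjusted p = 4.8e-07). AT4G19500 read 900.2, 835.8 and 600.0 in red phyA seedlings, against 39.3, 5.0 and 14.7 in red phyB seedlings, at least 7.24-fold (adjusted p = 1.3e-06). Both genes were near the bottom of the scale in phyB and in the middle of it in phyA. AT2G01090 was at least 4.91-fold higher in phyA, and there wild type read 25.47 ± 3.24 and phyAphyB 244.7 ± 20.74 (SD, n = 3 each). AT2G15010, AT1G08230, AT5G38030, AT4G32240, AT5G45510, AT5G20700 and AT4G19830 were higher in phyA by 1.76 to 2.11 log2 units. All 14 of these differences were also called in darkness. AT2G15010 lost its dark call without dark phyA replicates 2 and 3 (adjusted p = 0.057).

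Among the genes lower in phyA, AT3G47320, AT1G23960 and AT4G29200 were under the dim filter on all 3 red phyA arrays and bright on all 3 red phyB arrays. AT3G47320 read 1.4, 1.1 and 12.7 in red phyA seedlings, against 1251.7, 1271.6 and 1380.3 in red phyB seedlings, at least 11.6-fold lower in phyA (adjusted p = 0.00028). AT1G23960 read 2.7, 7.9 and 4.2 in red phyA seedlings, against 1664.5, 1788.0 and 2246.5 in red phyB seedlings, at least 16.8-fold lower (adjusted p = 7.6e-06). Red-lit phyAphyB and wild type seedlings averaged 7.77 and 6.77 for AT3G47320 and 17.33 and 10.87 for AT1G23960, so phyB was the only red-lit genotype with a signal above the dim level. In darkness AT3G47320 was at least 12.03-fold and AT1G23960 at least 17.5-fold lower in phyA. AT4G29200 had the same pattern, with 96.4, 102.8 and 94.2 in red phyA seedlings, against 2017.3, 1832.8 and 1514.3 in red phyB seedlings, at least 15.8-fold lower in phyA (adjusted p = 1.2e-09), and its 3 phyAphyB arrays and 3 wild type arrays all lay at or under 105.7.

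OSM34, the gene of the defence protein osmotin, read 635.8, 518.1 and 546.4 in red phyA seedlings, against 1928.0, 2427.8 and 2128.5 in red phyB seedlings. The arrays did not overlap, and the difference was -1.93 ± 0.26 under red light (adjusted p = 9.3e-06) and -1.79 ± 0.26 in darkness (adjusted p = 2.9e-05). RALFL32, which encodes a small signalling peptide of the RALF family, read 365.1, 404.4 and 531.0 in red phyA seedlings, against 1442.6, 1387.3 and 1640.8 in red phyB seedlings, a difference of -1.80 ± 0.18 (adjusted p = 1.4e-07). For RALFL32 the phyAphyB seedlings averaged 2276.73 ± 625.3 and wild type 435.23 ± 11.33 (SD, n = 3 each). AT2G16005 was at least 7.97-fold lower in phyA, with 84.1, 97.6 and 34.0 in red phyA seedlings, against 896.8, 878.7 and 904.8 in red phyB seedlings (adjusted p = 1.4e-09), and phyAphyB seedlings lay above both at 3198.23 ± 416.11 (SD, n = 3). The other loci on this side, AT2G19310, AT4G22212, AT5G48790, AT1G14930, AT4G36520 and AT5G27730, were lower in phyA, with differences of -2.64 to -1.85, and were called in darkness too.

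Of the 14 largest differences with phyA lower, AT2G18210 and AT1G06000 were not called in darkness. The change of the difference between red light and darkness did not pass for either (limma, adjusted p = 0.3 and 0.18). AT2G18210 read 223.1, 190.3 and 283.5 in red phyA seedlings, against 1352.5, 1087.8 and 962.5 in red phyB seedlings, a difference of -2.29 ± 0.47 (adjusted p = 0.0014). Its dark phyA arrays read 325.8, 3042.2 and 359.2, and its dark phyB arrays 1099.1, 848.1 and 1198.8. Replicate 2 of dark phyA alone stood above the phyB arrays. The dark difference was -0.55 ± 0.47 with it (adjusted p = 0.5), -1.60 without it (adjusted p = 1.2e-05), and 0.01 without dark phyA replicate 1 (adjusted p = 0.99).

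**Figure D2:**
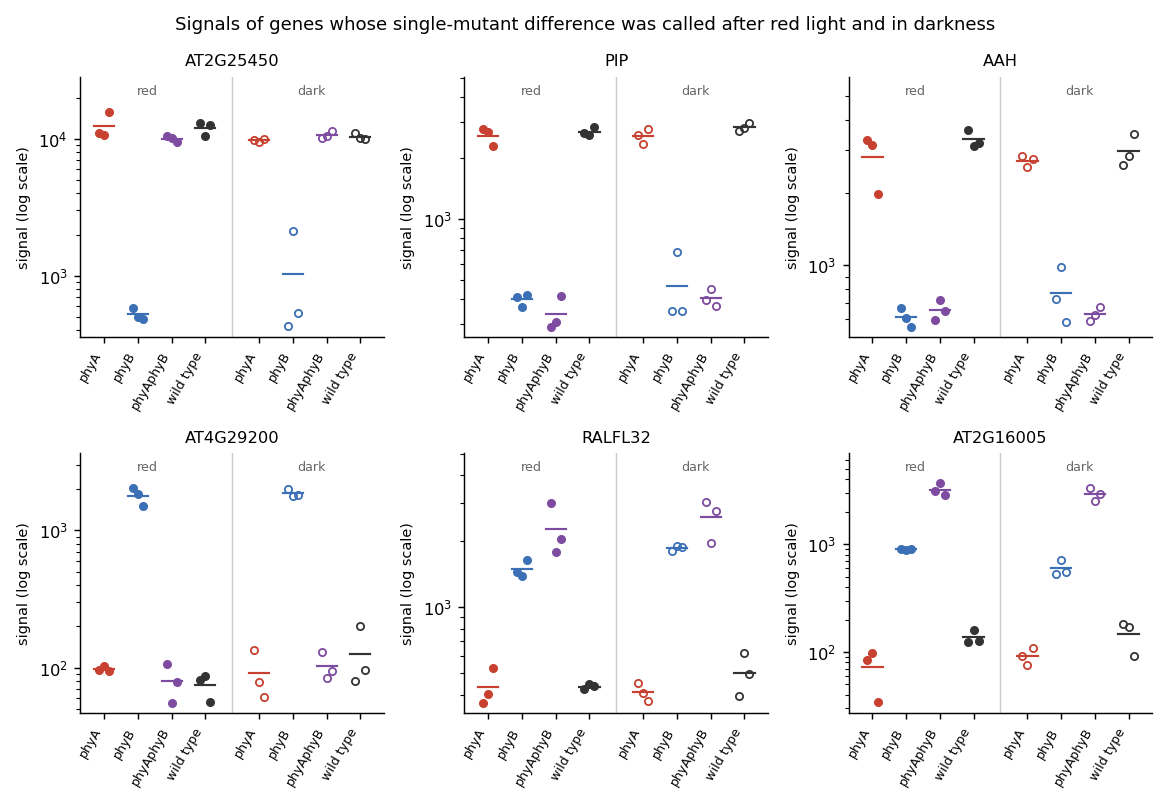
Signals on a log axis for 6 genes called in both lights, with red-lit groups as filled points on the left of each panel and dark groups as open points on the right, 3 arrays per group and a bar at the mean. phyA stood above phyB in the upper panels (AT2G25450 11050.8, 10662.1 and 15739.0 against 580.4, 502.6 and 484.8 under red light) and below it in the lower panels, and the place of phyAphyB differed between genes.

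The other red-lit genotypes were placed relative to the mutants. For each probe set, the level of red-lit wild type, and separately of red-lit phyAphyB, was compared with the midpoint of red phyA and red phyB on the log2 scale, a contrast that uses the same arrays of the mutants as their difference does. Among the 1598 red calls, wild type was nearer phyA at 1045 and nearer phyB at 553. phyAphyB was nearer phyA at 1109 and nearer phyB at 489. Over all 15085 probe sets wild type was nearer phyA at 53.9% and phyAphyB at 58.3%. Wild type differed from the midpoint at 544 probe sets (3.61%) and phyAphyB at 2094 (13.9%), so for most probe sets these places are descriptions without a call.

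At the 855 probe sets called in both lights, wild type was called off the midpoint toward phyA at 211 and toward phyB at 34. For phyAphyB these counts were 281 and 141. Over all 15085 probe sets the counts toward phyA and toward phyB were 351 and 193 for wild type and 1424 and 670 for phyAphyB. The lean of phyAphyB toward phyA was thus not particular to the probe sets called in both lights. By side of the midpoint alone, called or not, wild type and phyAphyB were both nearer phyA at 400 (46.8%), with phyB alone on the other side. AT2G25450, AT3G47320, AT1G23960 and AT4G29200 belonged here. At 276 (32.3%) wild type was nearer phyA and phyAphyB nearer phyB, the pattern of PIP, AAH, OSM34 and RALFL32. At 137 (16.0%) wild type was nearer phyB and phyAphyB nearer phyA, and AT2G01090 belonged here. At 42 (4.9%) both were nearer phyB. The shares over all tested probe sets were 30.9%, 23.0%, 27.5% and 18.6% in the same order of patterns. Without dark phyA replicates 2 and 3, the 535 probe sets called in both lights fell into these patterns at 263, 174, 75 and 23.

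**Figure D3:**
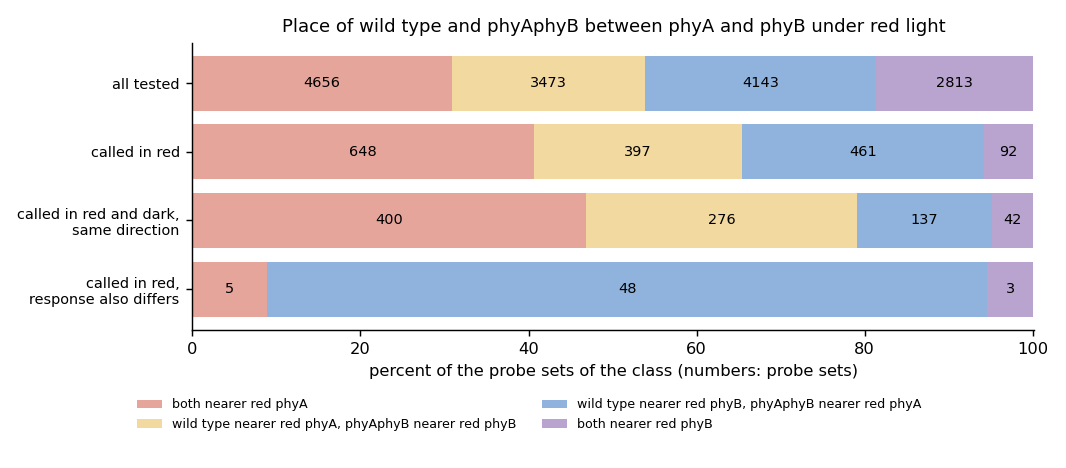
Percent of probe sets in each class by the place of red-lit wild type and red-lit phyAphyB relative to the midpoint of red phyA and red phyB, with the number of probe sets on each bar. The pattern with wild type nearer phyB and phyAphyB nearer phyA holds 48 of the 56 probe sets whose difference changed with light and 4143 of the 15085 tested.

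The difference between the mutants changed with light at 81 probe sets (0.537%), or 89 without dark phyA replicates 2 and 3, 16 with only the compared groups in the fit and 448 with array weights, by the contrast of the red response in phyA minus that in phyB, which was higher at 22 (0.146%) and lower at 59 (0.391%). Of the 1598 red calls, 56 were among these, 49 with phyA lower and 7 with phyA higher. The number depended on the dark arrays and on single arrays. It was 75 without dark phyA replicate 1, 61 without dark phyB replicate 1, 27 without dark phyB replicate 3, 33 without red phyB replicate 1, 36 without red phyB replicate 3, and 36 when dark phyA replicate 2, dark phyA replicate 3 or both were left out. At 48 of the 56 (85.7%) wild type was nearer phyB and phyAphyB nearer phyA. At 53 of the 56 phyAphyB was nearer phyA, and 39 of those were called as off the midpoint, while wild type was nearer phyB at 51, with 26 of those called. Without dark phyA replicates 2 and 3 the pattern held for 31 of 36. The 26 genes among the 56 probe sets were singled out after their values had been seen.

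AT3G02910 read 726.0, 623.3 and 936.4 in red phyA seedlings, against 2977.1, 2499.6 and 1761.0 in red phyB seedlings. The arrays did not overlap, and the difference was -1.65 ± 0.23 (adjusted p = 1.3e-05). In darkness the groups overlapped, at 358.0, 294.4 and 263.4 in phyA and 230.4, 364.2 and 251.1 in phyB. Under red light phyAphyB averaged 301.47 ± 100.66, near the dark level, and wild type 2298.5 ± 354.04, near phyB (SD, n = 3 each).

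SMZ, an AP2-type transcription factor gene that represses flowering, read 808.0, 494.3 and 583.7 in red phyA seedlings, against 1600.3, 1669.7 and 1235.8 in red phyB seedlings. All phyA arrays were below all phyB arrays, a difference of -1.27 ± 0.16 (adjusted p = 3.1e-06). In darkness the difference was 0.35 ± 0.16 (adjusted p = 0.16), and the change between lights was -1.62 ± 0.22 (adjusted p = 0.00047). Under red light phyAphyB averaged 477.47 ± 20.34 and wild type 1439.17 ± 177.55 (SD, n = 3 each). The changes between lights of AT3G02910, SMZ, MSRB6, AT1G64500, UGT76E2 and AT3G21670 stayed called in each of 12 fits without 1 array and in the fit without dark phyA replicates 2 and 3, in which 1 array stood for dark phyA and the other groups gave the spread.

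In the redox genes MSRB6 and AT1G64500, red-lit wild type read above phyB on every array, and phyB above phyA. MSRB6, a methionine sulfoxide reductase gene whose product repairs oxidised methionine, read 76.6, 105.5 and 113.4 in red phyA seedlings, against 263.7, 246.4 and 208.5 in red phyB seedlings, a difference of -1.30 ± 0.26 (adjusted p = 0.0013). In darkness it averaged 90.47 in phyA and 54.17 in phyB, with every array of both under the dim filter, so no difference between them could be read. AT1G64500, a glutaredoxin family gene, read 152.3, 218.3 and 175.1 in red phyA seedlings, against 561.0, 459.5 and 480.4 in red phyB seedlings, a difference of -1.47 ± 0.20 (adjusted p = 1.1e-05). All its dark phyA and dark phyB arrays were under the dim filter, so no difference between them could be read. Its red-lit phyAphyB arrays averaged 75.93 ± 8.55 and its wild type arrays 750.63 ± 40.91 (SD, n = 3 each).

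For 5 named genes the difference was called in both lights with opposite sign. UGT76E2, a UDP-glycosyltransferase gene, read 1048.1, 1068.1 and 904.4 in red phyA seedlings, against 1616.4, 1442.4 and 1590.3 in red phyB seedlings. phyA was lower under red light (-0.62 ± 0.12, adjusted p = 0.00072) and higher in darkness (0.67 ± 0.12, adjusted p = 0.00039), with dark signals of 984.8, 1400.5 and 1436.2 in phyA, against 762.3, 789.7 and 821.3 in phyB. The nitrate transporter family gene AT3G21670 (NPF6.4) differed by -0.94 ± 0.19 under red light (adjusted p = 0.0013) and 0.79 ± 0.19 in darkness (adjusted p = 0.0066). BIM1, a basic helix-loop-helix factor of brassinosteroid signalling, differed by -0.69 ± 0.13 under red light (adjusted p = 0.00086) and 0.45 ± 0.13 in darkness (adjusted p = 0.028), and AT3G17800 by -0.63 ± 0.12 and 0.37 ± 0.12 (adjusted p = 0.00077 and 0.044). AT5G53710 ran the other way, at 0.62 ± 0.19 under red light (adjusted p = 0.032) and -0.82 ± 0.19 in darkness (adjusted p = 0.0044). Over all probe sets 8 were of this kind, and 0 were without dark phyA replicates 2 and 3, when the dark differences of all 5 genes missed the threshold while their signs stayed. The dark call of AT3G21670 was also lost without dark phyB replicate 3 (adjusted p = 0.12 at most), that of BIM1 without dark phyA replicate 2 or 3 or dark phyB replicate 2 or 3 (at most 0.42), and that of AT3G17800 without any of dark phyA replicates 2 and 3 and dark phyB replicates 1 to 3 (at most 0.81). The red call of AT5G53710 was lost without red phyA replicate 1 or 2 or any red phyB replicate (adjusted p = 0.13 at most).

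AT4G10910 was the named gene of this class with the largest change between lights and a higher red level in phyA after AT5G53710. It read 930.3, 1248.1 and 1397.9 in red phyA seedlings, against 525.9, 664.5 and 700.6 in red phyB seedlings, a difference of 0.91 ± 0.14 (adjusted p = 8.6e-05). In darkness it differed by -0.25 ± 0.14 (adjusted p = 0.29). Red-lit phyAphyB averaged 1332.83 ± 98.33, near phyA, and wild type 510.23 ± 63.12, below both mutants' means (SD, n = 3 each).

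**Figure D4:**
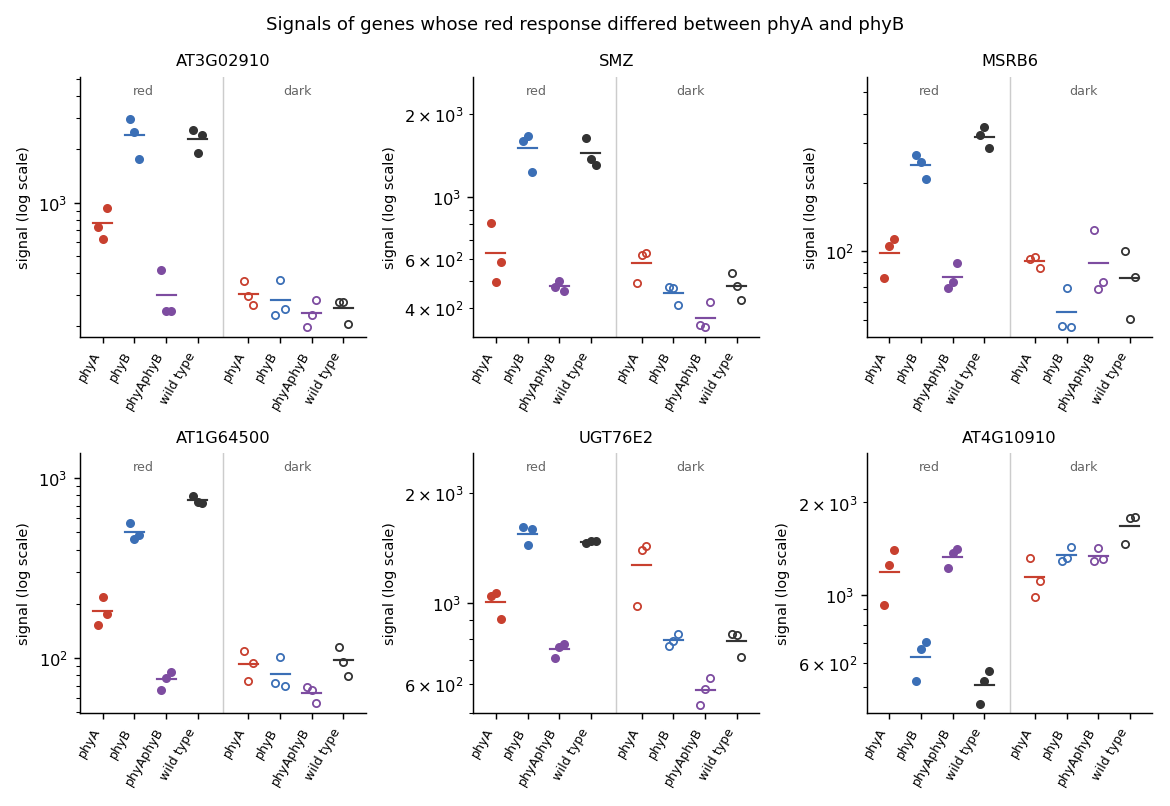
Signals on a log axis for 6 genes whose difference between the mutants changed with light, drawn as in the plot of genes called in both lights. In AT3G02910, SMZ, MSRB6 and AT1G64500 red-lit phyB and wild type both lie above phyA and phyAphyB, wild type above phyB in MSRB6 and AT1G64500, with AT3G02910 at 726.0, 623.3 and 936.4 in red phyA and 2977.1, 2499.6 and 1761.0 in red phyB, and in AT4G10910 the order is turned round.

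Gene groups were described from 24 lists of pathways and families, of which 317 distinct genes were tested. phyA was higher for 32 of these and lower for 18, so 15.8% were called, beside 10.6% of all probe sets. Of all 8103 tested genes with a probe set of their own, 833 were called. The lists were chosen with earlier results of these data known, so their share of calls is a description only. The lists hold only genes with a named probe set that passed the dim filter, and related family members can share signal on such arrays. Except for the plastid-encoded genes, members were matched by gene symbol, so genes given by code only are missing from the lists.

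The light signalling list had 3 tested genes of 80 and 0 calls. HYH, a bZIP partner of the light regulator HY5, read 99.9, 121.9 and 50.4 in red phyA seedlings, against 188.6, 178.4 and 226.5 in red phyB seedlings. Its arrays did not overlap, but the difference of -1.21 ± 0.63 did not pass (adjusted p = 0.28). FHL, a carrier of phytochrome A into the nucleus, differed by -0.12 ± 0.19, and HAT2, a homeobox gene of shade and auxin responses, by 0.09 ± 0.14. Of 3 clock genes, GI was lower in phyA and FIO1 higher. GI, the clock gene GIGANTEA, read 1662.8, 1544.6 and 1570.1 in red phyA seedlings, against 2328.5, 2257.8 and 1945.3 in red phyB seedlings (-0.45 ± 0.13, adjusted p = 0.021), and its call was lost without red phyA replicate 2 or 3 or red phyB replicate 1 or 2 (adjusted p = 0.095 at most). FIO1, which affects the period of the clock, differed by 0.81 ± 0.18 (adjusted p = 0.004). In the auxin list 0 of 12 genes were called, with a median of 0.02. IAA29, a repressor of auxin responses, differed by 0.35 ± 0.20 and GH3.3, which conjugates auxin, by -0.25 ± 0.15.

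The brassinosteroid-responsive growth gene EXO was the only call among 6 genes of the other hormones. It read 995.8, 1098.5 and 795.3 in red phyA seedlings, against 538.7, 567.5 and 789.9 in red phyB seedlings, a difference of 0.62 ± 0.15 (adjusted p = 0.0063). The lowest phyA array and the highest phyB array nearly met, and the call was lost without red phyB replicate 1. In darkness it averaged 5558.37 in phyA and 3010.5 in phyB, and the dark difference was 0.90 ± 0.15 (adjusted p = 0.00016). Of 31 cell wall genes phyA was higher for 5 and lower for 2, with a median of 0.16. Across the alternative fits 3 to 8 of them were called. EXPB3, among the higher genes, passed narrowly (adjusted p = 0.0496) and lost its call in 8 of 13 alternatives. EXPA9, an expansin gene for wall loosening, read 1737.6, 1111.0 and 1548.8 in red phyA seedlings, against 751.7, 663.1 and 660.6 in red phyB seedlings (1.06 ± 0.14, adjusted p = 1.1e-05). The beta-expansin gene EXPB1 differed by 0.95 ± 0.18 (adjusted p = 0.00053), and the differences of EXPA9 and EXPB1 were also called in darkness. The 2 lower genes were EXLB1, at -0.56 ± 0.16 (adjusted p = 0.023), and XTH32, at -0.89 ± 0.27 (adjusted p = 0.035). EXLB1 was also lower in darkness, at -0.99 (adjusted p = 0.00012). The red call of XTH32 was lost without red phyA replicate 1 or 3 or any red phyB replicate (adjusted p = 0.18 at most).

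UDP-glycosyltransferases, which attach sugars to small molecules, had 28 tested genes, 6 higher and 3 lower in phyA. Across the alternative fits 5 to 9 of them were called. UGT73B5 read 303.5, 297.4 and 304.1 in red phyA seedlings, against 162.7, 159.8 and 113.3 in red phyB seedlings (1.07 ± 0.21, adjusted p = 0.00082). UGT72E1, which glycosylates lignin precursors, was higher by 0.78 ± 0.19 (adjusted p = 0.0073). UGT78D2, a flavonoid 3-O-glucosyltransferase and the only call among 3 flavonoid genes, whose median was 0.47, was lower in phyA, with 209.2, 275.5 and 227.8 in red phyA seedlings, against 447.2, 456.7 and 527.1 in red phyB seedlings (-1.01 ± 0.18, adjusted p = 0.00036). AT1G06000, a flavonol rhamnosyltransferase gene among the 14 largest differences, read 171.3, 164.5 and 143.3 in red phyA seedlings, against 602.4, 653.6 and 603.4 in red phyB seedlings (-1.96 ± 0.33, adjusted p = 0.00016). AT1G06000 carries no symbol in the gene table, so the counts and medians of the glycosyltransferase and flavonoid lists leave it out. For UGT78D2 and AT1G06000 the arrays did not overlap under red light, and red-lit wild type averaged 463.07 for UGT78D2 and 691.83 for AT1G06000. The dark difference of UGT78D2, -0.07 ± 0.18, did not pass, and all dark phyA and dark phyB arrays of AT1G06000 were under the dim filter. The change of the difference between lights did not pass for UGT78D2 (adjusted p = 0.11) or AT1G06000 (adjusted p = 0.18).

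In the chlorophyll and tetrapyrrole list 0 of 10 genes were called, within -0.24 to 0.24. PORB, a protochlorophyllide oxidoreductase gene, read 5684.3, 6415.4 and 4683.5 in red phyA seedlings, against 5387.4, 4537.8 and 5609.5 in red phyB seedlings, and the arrays overlapped. Of 14 nuclear photosynthesis genes phyA was higher for 1 and lower for 2. ATPC2, a gamma subunit of the chloroplast ATP synthase, differed by 0.91 ± 0.15 (adjusted p = 0.00011) and PSAN, a photosystem I subunit, by -0.55 ± 0.14 (adjusted p = 0.011), a call lost without red phyA replicate 3 or red phyB replicate 3 (adjusted p = 0.062 at most). LHCB4.1, an antenna protein gene, differed by 0.09 ± 0.11. Of 66 plastid-encoded genes 1 was called, rpoC1 of the plastid RNA polymerase, at 0.76 ± 0.22 (adjusted p = 0.024), and this call was lost without red phyA replicate 1 or 2 or red phyB replicate 1 or 2 (adjusted p = 0.1 at most). The median of the plastid-encoded genes was 0.21, beside 0.02 over all tested probe sets.

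Of 26 redox and glutathione genes phyA was higher for 2 and lower for 4. GSTU23, a glutathione transferase gene, read 1583.6, 1187.0 and 1580.4 in red phyA seedlings, against 496.1, 523.5 and 335.5 in red phyB seedlings (1.70 ± 0.20, adjusted p = 1.8e-06), and 1.46 ± 0.20 in darkness. Its relative GSTU18 was lower in phyA, at -1.003 ± 0.24 (adjusted p = 0.0066), a call lost without red phyB replicate 3 (adjusted p = 0.062). In the glucosinolate list phyA was higher for 3 and lower for 2 of 15 genes, with a median of 0.24. FMO, a flavin monooxygenase gene, read 402.4, 367.5 and 373.1 in red phyA seedlings, against 117.6, 118.9 and 80.7 in red phyB seedlings (1.87 ± 0.18, adjusted p = 1.1e-07). BGLU19 and BGLU28, beta-glucosidase genes, were higher by 1.03 ± 0.22 and 0.87 ± 0.23. Among the 2 lower genes, UGT74B1 differed by -0.79 ± 0.24 under red light (adjusted p = 0.03) and -0.90 ± 0.24 in darkness (adjusted p = 0.012). Its red call was lost without red phyA replicate 1 or 3 or red phyB replicate 2 or 3 (adjusted p = 0.12 at most). The gene AT2G25450 was not in this list, because it carries no symbol in the gene table. Of 4 genes named as defence or jasmonate genes, the defensin gene PDF1.4 was higher by 1.11 ± 0.20 (adjusted p = 0.0003), and of 8 cytochrome P450 genes CYP71B6 was higher by 0.98 ± 0.11 (adjusted p = 7.2e-07).

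Of 8 genes of water deficit, cold and abscisic acid responses phyA was higher for 4 and lower for 0, with a median of 0.49. LEA, a dehydrin gene, read 824.5, 892.1 and 901.4 in red phyA seedlings, against 394.3, 403.5 and 397.2 in red phyB seedlings (1.13 ± 0.18, adjusted p = 7.9e-05), and differed by 1.22 ± 0.18 in darkness. LEA18, a late embryogenesis abundant protein gene, read 2807.3, 3545.6 and 3924.0 in red phyA seedlings, against 1590.2, 1689.0 and 1758.6 in red phyB seedlings (1.02 ± 0.14, adjusted p = 1.5e-05). In darkness LEA18 differed by 0.19 ± 0.14, and the change between lights of 0.82 ± 0.20 missed the threshold (adjusted p = 0.058). The calls of LEA4-5 and COR27, at 0.71 ± 0.22 and 0.62 ± 0.19, were each lost in 5 of the 6 fits without 1 red array, for LEA4-5 in all but the fit without phyA replicate 2 and for COR27 in all but that without phyB replicate 3 (adjusted p = 0.18 and 0.15 at most). COR47, RD2 and LTI30, also cold and drought genes, differed by -0.09 to 0.14 and were not called.

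Of 6 sugar, starch and lipid reserve genes phyA was higher for 2, ICL and OLEO3, and of 4 nitrogen and sulphur genes for 1, APS4, with 0 lower in either list. ICL, the isocitrate lyase gene of the glyoxylate cycle that turns seed oil into sugar, read 16405.8, 16154.9 and 18399.7 in red phyA seedlings, against 12455.2, 12722.2 and 14413.5 in red phyB seedlings (0.36 ± 0.11, adjusted p = 0.025). The groups did not overlap, but the call was lost without red phyA replicate 3 or red phyB replicate 1 or 2 (adjusted p = 0.11 at most). OLEO3, an oil-body protein gene, differed by 0.61 ± 0.15 (adjusted p = 0.0066), a call lost without red phyA replicate 2 (adjusted p = 0.052). APS4, a sulphate-activating enzyme gene, differed by 0.68 ± 0.15 (adjusted p = 0.0023) and 0.75 ± 0.15 in darkness.

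Of 33 ubiquitin, F-box and autophagy genes phyA was higher for 2 and lower for 3. ATG8D, an autophagosome protein gene, was higher by 0.51 ± 0.11 (adjusted p = 0.0029) and its paralogue ATG8F lower, at -0.34 ± 0.10 (adjusted p = 0.031), the second with its call lost in all fits without 1 red array but that without phyA replicate 2 (adjusted p = 0.12 at most). SKP2A, an F-box gene of cell-cycle control, was lower, at -0.48 ± 0.11 (adjusted p = 0.0037). Of 29 numbered transcription factor genes phyA was higher for 1 and lower for 2, and bHLH104, a regulator of iron uptake, read 427.0, 581.9 and 620.0 in red phyA seedlings, against 1010.7, 965.5 and 957.2 in red phyB seedlings (-0.87 ± 0.14, adjusted p = 8e-05). Of 7 cell cycle and histone genes HTB1, a histone H2B gene, was higher by 0.77 ± 0.17 (adjusted p = 0.0031). The carotenoid list had 1 tested gene and the reference genes 4, all without a call. The heat shock and ribosomal protein lists had 0 tested genes by symbol. Genes of these kinds that are given by code only could not enter them.

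**Figure D5:**
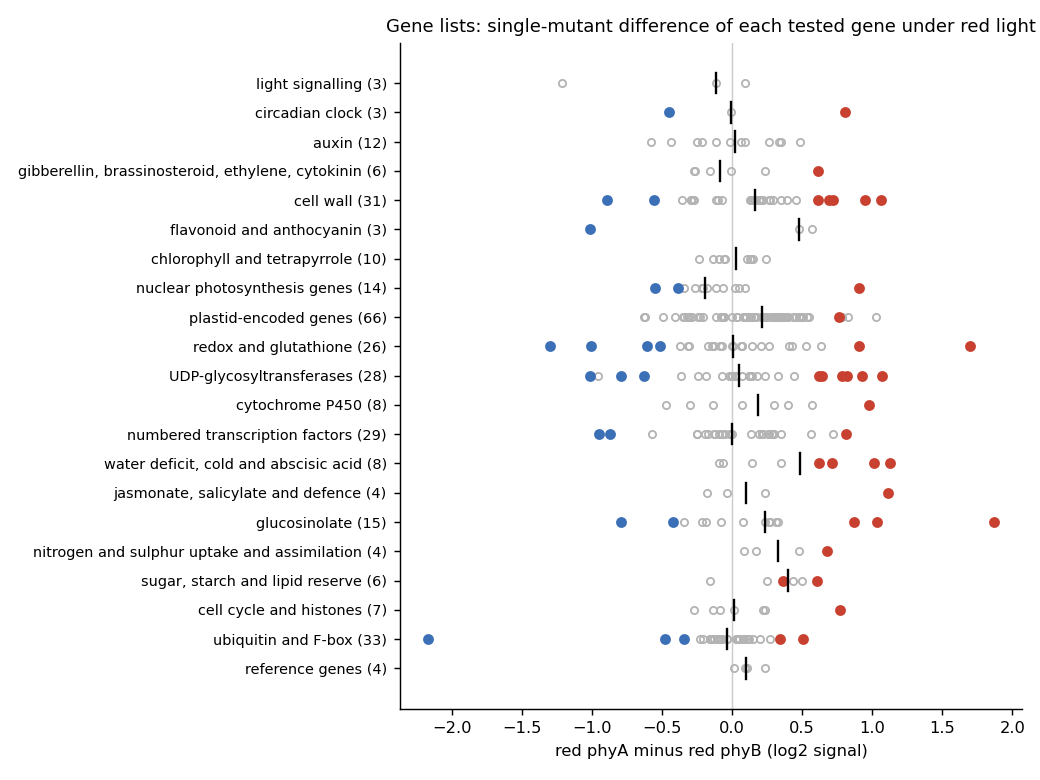
Log2 difference of red phyA minus red phyB for each tested gene of the lists with at least 3 tested genes, whose number stands in brackets. Filled points are calls, red where phyA was higher and blue where it was lower, open points did not pass, and the black tick is the median, which is 0.49 for the 8 water deficit genes and 0.02 for the 12 auxin genes.

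Organ markers were read for the parts that the seedlings of the groups held. A marker sum cannot tell the share of an organ from the level of the marker in it. The root list had 2 tested genes with 0 calls, and its summed signal was 18601.7 to 26968.2 in red phyA arrays, against 15698.3 to 20645.9 in red phyB arrays. PYK10, a beta-glucosidase of root and hypocotyl, made up most of it. The cotyledon and leaf list had 5 tested genes with 0 calls and sums of 17984.0 to 21738.4 in red phyA arrays, against 16606.8 to 21794.1 in red phyB arrays. The hypocotyl elongation list had 6 tested genes and 1 call, EXO, with sums of 7309.1 to 8451.8 in red phyA arrays, against 8073.1 to 8737.1 in red phyB arrays. EXPA8 made up most of that sum and leaned the other way from EXO, at -0.30 ± 0.12 without a call (adjusted p = 0.12). The seed residue list rested on ICL alone. Genes of these lists at a signal of 0 numbered 0, and the part of organ shares in the other differences was not tested.

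The share of called genes was counted along the genome, with no test of its spread. By the gene order of the TAIR10.1 table, 10.3% of 8075 placed genes were called under red light, with 13.0% on chromosome 5, 11.7% on chromosome 4, 11.3% on chromosome 2, 9.88% on chromosome 1 and 6.07% on chromosome 3. Among the 100 tested genes on each side of PHYB, on chromosome 2, 45 of 200 were called (22.5%), and among those around PHYA, on chromosome 1, 33 of 200 (16.5%). The called genes around PHYB include AT2G18210, AT2G19310, EXPB1 and FIO1, and those around PHYA include AT1G08230, AT1G09750, HTB1 and GSTU18. In darkness 44 of the 200 genes around PHYB and 36 of the 200 around PHYA were called, beside 993 of all 8075. In runs of 50 neighbouring genes the highest share was 16 of 50 (32.0%) on chromosome 4, in the run that starts at AT4G19160, a run picked for its share, which holds AT4G19240, AT4G19500, AT4G19830 and AAH. The chromosome 5 runs that start at AT5G43930 and AT5G45560 each had 14 of 50 (28.0%). The run from AT2G18100, which spans PHYB, had 8 of 50 (16.0%), and others, such as that from AT1G50510, had 0 of 50. What neighbouring genes share besides their position was not tested.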

How the data were processed

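Whole-seedling RNA was hybridised to 24 Affymetrix arrays, 3 biological replicates in each of 8 groups. The deposited values are signal intensities on a linear scale, made by the authors with MAS5 per the submitters' processing notes, with the version not given in the sources used here. They had been scaled, since the mean of each array without its 2% extremes lay between 500.038 and 500.044, and were used without a further normalization. The depth of an array has no count, so the precision is limited by the number of arrays.

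Of 22810 probe sets, 64 controls were left out. Of the other 22746, 13513 name 1 gene in the platform's annotation, 503 several and 8730 none, and 77 of the 13513 had a locus not matched in the TAIR10.1 gene table, which supplied symbols and gene order. A symbol was never given to a probe set with several genes. Probe sets above the 40th percentile of their array (97.4 to 127.3) on at least 3 arrays were tested. log2 intensities were fitted with limma 3.58.1 in R 4.3.3 (8 group means, lmFit, contrasts.fit, eBayes with an intensity trend, two-sided), and p-values were adjusted by Benjamini-Hochberg over all 15085 probe sets. Of 22746 probe sets with 24 values, 4 values were 0, none of them among the tested. The fit was tested on simulated data for the red comparison over 15085 probe sets. Red phyA was given the means of red phyB with normally distributed noise, and 66 or 67 probe sets were changed at each fold. The fit recovered 35.8% of 1.5-fold, 76.1% of 2-fold and 95.5% of 4-fold changes, with 11 false calls. Far fewer probe sets changed there than were called in the data, so the shares recovered in the data can differ.

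Named genes are, in each direction, the 14 largest differences among red calls with 1 gene, no overlap of arrays and a brighter mean above 402.0, up to 4 calls of each list, and up to 4 genes in each direction for the dark difference and its change with light. Genes named outside this were chosen after their values were seen, as were the bounds, which set the bright group against the 40th percentile of each dim array. The compared groups, lists and tests were chosen with earlier results of these data known. Same-numbered replicates did not deviate together (correlations of -0.25 to -0.071 between the mutants within a light, and of -0.156 to 0.117 between the lights within a mutant), so replicates were not paired. Alternatives were quantile normalization, other filters, a pseudocount, no trend, fewer groups, a replicate block, array weights and left-out arrays. Promoter motifs were not analysed here.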

Additional observations from a re-analysis of the deposited data

Results flagged for a closer look

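For 28 named genes the difference between phyA and phyB under red light was not that in darkness, by the limma test of the change of the difference (adjusted p under 0.05). Values are the red difference minus the dark difference, phyA minus phyB, in log2 units. Of the 28, 11 stayed called in every fit without 1 array and 9 without dark phyA replicates 2 and 3, whose 25S control stands apart. That last fit holds 1 dark phyA array and takes the spread from the other groups. For MSRB6 and AT1G64500 all dark phyA and dark phyB arrays were under the dim filter. For AT5G12110 red phyA replicates 2 and 3 (25.6 and 26.2), dark phyA replicates 1 and 3 and all dark phyB arrays were under it, so the size of its change is uncertain.

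The change stayed called in each fit without 1 array for MSRB6 (-2.06), AT3G02910 (-1.78), AT3G21670 (-1.73), AT1G01390 (-1.69), AT1G64500 (-1.66), SMZ (-1.62), UGT76E2 (-1.29), BIM1 (-1.14) and AT3G17800 (-1.002). In the other direction it stayed called for AT5G53710 (1.45) and AT4G10910 (1.16). Of these 11, AT1G64500, AT3G02910, AT3G21670, MSRB6, SMZ and UGT76E2 were also called without dark phyA replicates 2 and 3.

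The other 17 lost the call in at least 1 fit without 1 array. The negative changes were AT5G12110 at -2.71, AT4G17670 at -1.50, AT2G16365 at -1.24, AT4G21870 at -1.04, AT3G09440 at -0.997, AT1G23030 at -0.92, TBL37 at -0.90, AT1G32690 at -0.86, AT1G66330 at -0.83, ARD4 at -0.69, AT2G41250 at -0.67 and AT4G25620 at -0.66. The positive changes were WAG2 at 1.17, AT3G20340 at 0.99, AT3G03170 at 0.79, AT5G52650 at 0.75 and AT1G09750 at 0.72. WAG2, a protein kinase gene, and AT3G20340 did not pass in the red comparison itself, at 0.48 ± 0.16 (adjusted p = 0.058) and 0.41 ± 0.16 (adjusted p = 0.1). ARD4, an acireductone dioxygenase gene of the methionine cycle, differed by -0.92 ± 0.11 under red light (adjusted p = 2.5e-06) and by -0.23 ± 0.11 in darkness (adjusted p = 0.2).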

How the results depend on the processing

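The count of red calls stayed within 1.5 times of 1598 in all alternatives, from 1193 without red phyB replicate 3 to 1913 with array weights, and the lowest and highest counts without 1 array were 1193 and 1382. The replicate block gave 1580 red calls, and no pairing of the numbers is given by the labels. The contrast dark phyA minus dark phyB had 987 calls with the compared groups alone, 3781 with array weights and 1096 without dark phyA replicates 2 and 3, against 1862. The change of the difference with light had 50 calls with no filter, 16 with the compared groups alone, 448 with array weights and 32 to 146 without 1 array, against 81. The placement of wild type had 832 calls with array weights and 274 to 548 without 1 array, against 544. The dark difference of AT2G18210 reversed to 0.0106 without dark phyA replicate 1 and passed the threshold at -1.60 without dark phyA replicate 2 and -1.67 without both replicates 2 and 3. Of 97 named red calls, 76 were kept in every alternative, 21 were lost in at least 1 and 0 reversed. The causes were not tested.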

Other observations

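Probe sets without a gene name were among the largest differences. In each direction the 2 largest were taken. With phyA lower, they were at least 3.64-fold and at least 9.77-fold lower under red light. With phyA higher, they differed by 3.93 ± 0.23 and 3.65 ± 0.56 log2 units. All were also called in darkness, in the same order at least 3.98-fold lower, by -3.48 log2 units, by 3.27 log2 units and at least 5.5-fold higher. The locus AT4G19240 was at least 3.55-fold lower in phyA under red light and at least 3.74-fold lower in darkness.

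Single arrays stood out among the 78 red calls of at least 4-fold. Of the 50 with phyA higher, dark phyB replicate 2 was the highest of the 3 dark phyB arrays at 28, with a median ratio of 1.415 to the mean of the other 2 replicates. Of the 28 with phyA lower, red phyA replicate 2 was the highest of the 3 red phyA arrays at 17, with a median ratio of 1.315.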
